A study of Mus musculus with 6 samples.

Results

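The 9 genes described here encode the receptors through which estrogens, progesterone, glucocorticoids and mineralocorticoids act, and transcripts that are widely used as readouts of them. They were measured in mouse ovarian surface epithelium, the single cell layer over the ovary, sorted into EGFP-high and EGFP-low cells of Lgr5-eGFP-CreERT2 females. Members were the probe sets paired in the platform annotation with 1 symbol, where that symbol is Esr1, Esr2, Pgr, Nr3c1, Nr3c2, Gper1, Greb1, Fkbp5 or Tsc22d3. There were 10 such probe sets, 2 of them for Nr3c2, and they stand for 9 of the 22180 named genes among 41345 probe sets. A further probe set names Nr3c2 together with another gene and was not used. All mice were untreated and 8 to 12 weeks old, and every cell of both populations carried the Lgr5 reporter allele, in which EGFP and CreERT2 are expressed from the Lgr5 locus. There were 3 arrays of EGFP-high cells and 3 of EGFP-low cells, with 8 mice pooled per array. Per the series' design text the 3 arrays of a population are technical replicates, so p-values measure the spread between arrays and not between animals.

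Steroid receptors of the nuclear family are transcription factors that wait in a complex with the Hsp90 chaperone until they bind hormone, then attach to short response elements in DNA. Esr1 and Esr2 encode the estrogen receptors alpha and beta, Pgr the progesterone receptor, Nr3c1 the glucocorticoid receptor and Nr3c2 the mineralocorticoid receptor, while Gper1 is a G protein-coupled receptor described as responding to estrogen. Greb1 and Pgr are classic genes induced by estrogen. Fkbp5, a co-chaperone that lowers the hormone affinity of the glucocorticoid receptor, and Tsc22d3, a leucine zipper protein also called GILZ, are induced by glucocorticoids. The surface epithelium of the ovary is known to express estrogen, progesterone and glucocorticoid receptors and lies next to hormone-producing follicles and corpora lutea.

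The deposited log2 columns are not 6 separate measurements. High replicate 2 equals the mean of high replicates 1 and 3 in every probe set within a tolerance of 2e-04, and low replicate 1 is fixed by the other columns to the same tolerance. The columns thus hold 4 independent dimensions, and SDs of the high population rest on 2 independent columns. SDs of the low population include low 1, which is tied to low 2, low 3, high 1 and high 3. An n of 3 below therefore counts columns and not separate measurements. The difference of the group means equals high 3 minus low 1 in every probe set, within the same tolerance. Differences were therefore tested with limma and a term for 3 array sets inferred from these relations (high 1 with low 1; high 3 with low 2 and 3; high 2 alone), which leaves 2 residual degrees of freedom. The 2 contrasts within these sets are given for single genes below. They are high 1 minus low 1, and high 3 minus the average of low 2 and 3. Because low 1 is fixed by the other columns, these contrasts are not separate replicates. Lgr5, the locus the sort was made on, read 9.0, 8.97 and 8.94 in the high arrays, against 7.84, 7.76 and 8.01 in the low arrays. All 17 surface epithelium and mesothelium markers on the list were brighter on average than the background described next, among them the keratin Krt18 with means of 11.05 in high and 10.43 in low cells.

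On each array, the 95th percentile of 1400 probe sets for olfactory and vomeronasal receptors, genes that ovarian cells are not known to use, served as a background level. It lay between 3.8 and 4.03 on the log2 scale. The median of all probe sets was just below it on each array (3.76 to 3.85), so many probe sets pass it. Of the 10 member probe sets, 8 were above it on all 6 arrays. Pgr and the second Nr3c2 probe set were above it on 0 arrays. At the stricter 99th percentile of the same receptors, 3 remained above on all 6 arrays, those of Esr1, Nr3c1 and Tsc22d3. Esr2 and Gper1 were above that percentile on 0 arrays. Probe brightness depends on the probe as well as on the RNA, so these levels show which members passed this background and not which transcript was more abundant.

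**Figure D1:**
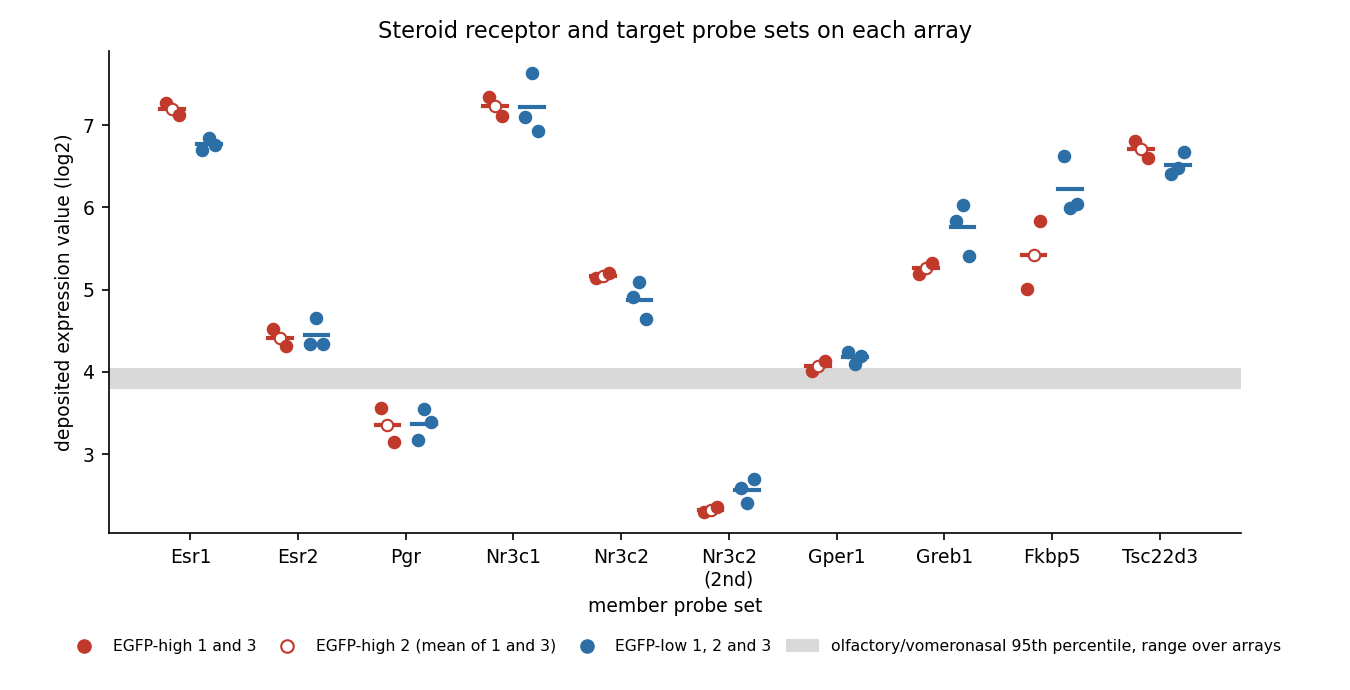
Log2 expression (vertical axis) of the 10 member probe sets (horizontal axis) on each array, EGFP-high in red at the left of each pair and EGFP-low in blue at the right; bars are group means, the open circle is high replicate 2, and the grey band spans the background level over the 6 arrays. Pgr and the second Nr3c2 probe set lie below the band, and the high and low arrays are apart for Esr1, both Nr3c2 probe sets, Greb1 and Fkbp5.

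None of the 10 member probe sets passed an adjusted p of 0.05 in limma with the array-set term (0 of 10, adjusted p from 0.958 to 0.999), where 0.0% of all 41345 probe sets did. Intervals below are 95% limits of that fit, not adjusted for the number of probe sets. At an unadjusted p below 0.05 there were 0 of 10 members, against 4.81% of all probe sets. The high and low arrays did not overlap for 5 of 10 members, beside 31.9% of all probe sets. In 2 of these, Esr1 and the main Nr3c2 probe set, the high arrays were above the low arrays, and in 3, Greb1, Fkbp5 and the second Nr3c2 probe set, they were below. One member, Fkbp5, differed by at least 1.5-fold, and it was lower in the high cells, a size and direction seen in 5.79% of all probe sets. The median difference of the 10 was −0.03, beside −0.01 over all probe sets.

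Esr1, the receptor that carries most estrogen responses in the reproductive tract, read 7.27, 7.20 and 7.13 in the 3 high arrays, against 6.70, 6.85 and 6.76 in the 3 low arrays. Every high array was above every low array. The means were 7.20 ± 0.07 in high and 6.77 ± 0.07 in low cells (SD, n = 3 each), a difference of 0.43 on the log2 scale, or 1.35-fold (95% interval −0.09 to 0.95). It was 0.57 in the first within-set contrast and 0.33 in the second. With group as the only term, which counts 4 residual degrees of freedom where the columns leave 2, limma gave Esr1 an adjusted p of 0.0491, and 4.15% of all probe sets passed that fit. Esr1 was the 1 member to do so. In that fit the adjusted p was 0.0435 without low replicate 2 and between 0.0603 and 0.307 when any other array was left out.

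Esr2, the beta receptor best known from granulosa cells of the follicle, read 4.52, 4.41 and 4.31 in the high arrays and 4.34, 4.65 and 4.34 in the low arrays. These ranges overlap, and the difference was −0.03 (−0.62 to 0.55). Its levels stood only a little above the background on every array. The interval allows a difference of either sign up to about the size of the 1.5-fold threshold. Gper1, the membrane receptor, was closest to the background of the 8 members above it, with 4.01, 4.07 and 4.13 in the high arrays and 4.24, 4.10 and 4.19 in the low arrays. Its difference was −0.10 (−0.62 to 0.41), and the groups overlap.

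Pgr read 3.56, 3.35 and 3.15 in the high arrays and 3.17, 3.55 and 3.39 in the low arrays. All 6 values were under the background level of their array, so Pgr was not above background in either population on this probe set. Its difference of −0.02 (−0.66 to 0.63) compares signals that could not be told from background.

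Nr3c1, the glucocorticoid receptor, was brighter than 92.0% of probe sets in high cells and 92.2% in low cells. It read 7.35, 7.23 and 7.11 in the high arrays, against 7.10, 7.64 and 6.93 in the low arrays. The high arrays lie inside the range of the low arrays, which spread over 0.70 log2 units. The difference was 0.01 (−0.75 to 0.76), with 0.25 in the first within-set contrast and −0.18 in the second. Nr3c2, the mineralocorticoid receptor, read 5.14, 5.17 and 5.20 on its main probe set in the high arrays and 4.91, 5.09 and 4.64 in the low arrays. The high arrays were all above the low ones, by 0.29 on average (−0.31 to 0.89), or 1.22-fold. The second Nr3c2 probe set gave 2.30, 2.32 and 2.35 in high and 2.59, 2.41 and 2.69 in low arrays, a difference of −0.24 (−0.78 to 0.30) in the opposite direction, at levels under the background.

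**Figure D2:**
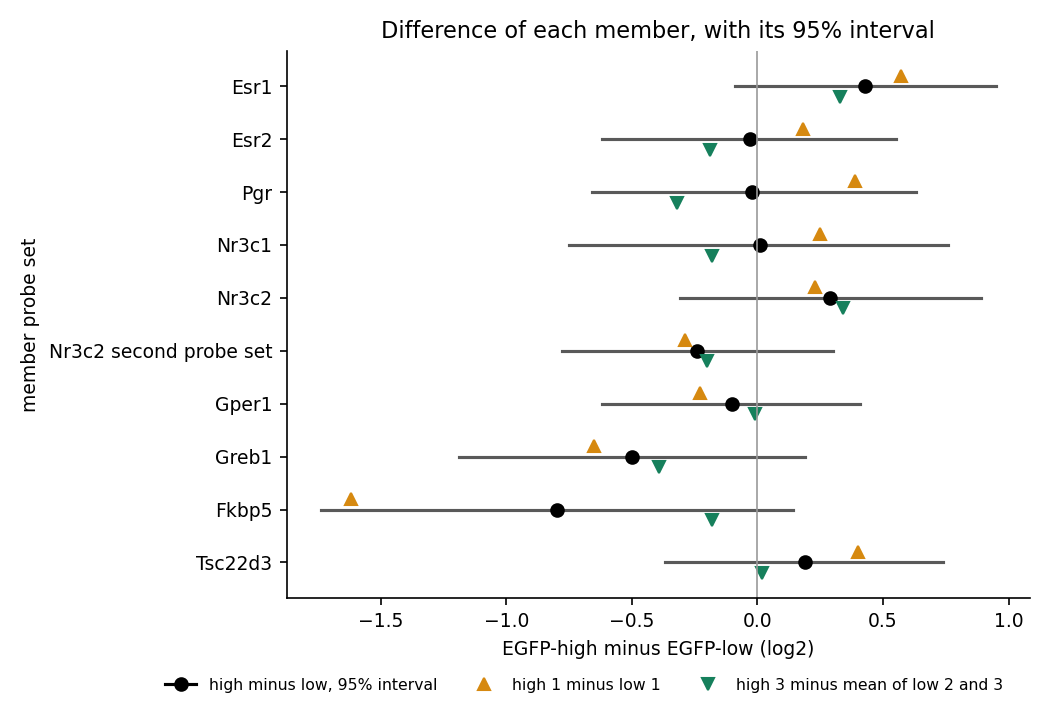
Difference of EGFP-high minus EGFP-low on the log2 scale (horizontal axis) for each member probe set (vertical axis), as a black point with its 95% interval from limma with the array-set term; triangles give the 2 contrasts within the inferred array sets. Every interval spans 0, and the 2 triangles fall on opposite sides of 0 for Esr2, Pgr and Nr3c1.

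The within-set contrasts had the same sign for 7 of the 10 probe sets and opposite signs for 3, those of Esr2, Pgr and Nr3c1. For the first of these the values were 0.18 and −0.19, and for Pgr 0.39 and −0.32. For the main Nr3c2 probe set both were positive, 0.23 and 0.34. Through the relations among the columns, these contrasts rest on shared arrays and are not separate replicates. A shared sign is therefore not a separate check of a difference. The share of all probe sets with the same sign is not given here, so the count of 7 has no comparison.

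Among the estrogen-induced members, Greb1, a nuclear protein that binds the estrogen receptor and serves as a cofactor in breast cells, went the other way from Esr1. It read 5.19, 5.26 and 5.33 in the high arrays, against 5.83, 6.03 and 5.41 in the low arrays. The groups do not overlap, but low replicate 3 lies only just above high replicate 3. The means were 5.26 ± 0.07 in high and 5.76 ± 0.32 in low cells (SD, n = 3 each), a difference of −0.50 (−1.19 to 0.19), with −0.65 and −0.39 in the 2 within-set contrasts. In the fit with no array-set term its limma adjusted p was 0.147, and it was 0.0397 without low replicate 3 and between 0.174 and 0.418 when any other array was left out.

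Fkbp5 had the largest difference of the members. It read 5.01, 5.42 and 5.83 in the high arrays, against 6.63, 5.99 and 6.04 in the low arrays. All high arrays were below all low arrays, yet the 2 nearest, high 3 and low 2, were close together. The means were 5.42 ± 0.41 in high and 6.22 ± 0.36 in low cells (SD, n = 3 each), a difference of −0.80 on the log2 scale (−1.74 to 0.14), or 1.74-fold lower. Of all probe sets, 4.24% differed by more than this in either direction. The difference was −1.62 in the contrast of high 1 with low 1 and −0.18 in the other, so the 2 contrasts were far apart. Left without high replicate 3 the value was −1.62, and without low replicate 1 or high replicate 1 it was −0.18. Fkbp5 is the 1 member in the authors' deposited table of 1134 probe sets at 1.5-fold or more, which lists a ratio of 0.634 for it, or −0.66 on the log2 scale. No source used here says why that ratio differs from the value table.

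Tsc22d3 gave a small difference in the other direction. It read 6.81, 6.71 and 6.60 in the high arrays and 6.41, 6.48 and 6.67 in the low arrays, where low replicate 3 exceeds high replicate 3. The difference was 0.19 (−0.37 to 0.74), with 0.40 and 0.02 within the array sets. The 2 glucocorticoid-induced members thus had differences of opposite sign.

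The windows around the annotated start sites of the members were read from RefSeq (GRCm38.p6), 250 bases before and 50 after each start. There were 12 windows for 8 of the members, and Nr3c1 was not covered by this search. They were searched on both strands for the full estrogen response element GGTCANNNTGACC and the full glucocorticoid response element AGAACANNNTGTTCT, which read the same on both strands, and for their half-sites, GGTCA (or TGACC) and AGAACA (or TGTTCT), which the full elements contain. The full elements occurred in 0 of the 12 windows, and in 0.07% and 0.00913% of all 32851 windows of this length. The estrogen half-site was in 7 of 12, beside 40.5% of all windows, and the glucocorticoid half-site in 1 of 12, beside 19%. Response elements of these receptors often lie far from start sites, which these windows do not cover. Shown next are the windows of Esr1, Greb1 and Fkbp5, the members with the largest differences, and the window of Tsc22d3 that holds the glucocorticoid half-site. Of several windows of a gene, 1 is shown. Half-sites are in capitals, and all other bases are in lower case.
Esr1, chr10:4611739-4612038, plus strand: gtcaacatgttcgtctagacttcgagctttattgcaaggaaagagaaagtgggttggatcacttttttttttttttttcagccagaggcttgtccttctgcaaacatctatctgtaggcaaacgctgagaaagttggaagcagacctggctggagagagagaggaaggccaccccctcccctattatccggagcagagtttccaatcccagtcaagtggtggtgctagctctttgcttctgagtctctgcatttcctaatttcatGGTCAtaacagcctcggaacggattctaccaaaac
Greb1, chr12:16800837-16801136, minus strand: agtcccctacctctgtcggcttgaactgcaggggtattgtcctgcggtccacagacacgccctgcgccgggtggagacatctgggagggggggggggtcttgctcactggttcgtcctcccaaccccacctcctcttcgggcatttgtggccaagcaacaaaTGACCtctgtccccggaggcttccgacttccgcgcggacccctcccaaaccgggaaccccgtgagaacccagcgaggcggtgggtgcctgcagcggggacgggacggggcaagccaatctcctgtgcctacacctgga
Fkbp5, chr17:28486100-28486399, minus strand: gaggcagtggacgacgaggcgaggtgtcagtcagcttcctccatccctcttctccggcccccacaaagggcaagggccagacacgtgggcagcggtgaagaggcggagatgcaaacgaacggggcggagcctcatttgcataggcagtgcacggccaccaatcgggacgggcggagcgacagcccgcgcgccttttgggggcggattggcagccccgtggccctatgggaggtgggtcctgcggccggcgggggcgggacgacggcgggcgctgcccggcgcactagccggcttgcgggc
Tsc22d3, chrX:140600473-140600772, minus strand: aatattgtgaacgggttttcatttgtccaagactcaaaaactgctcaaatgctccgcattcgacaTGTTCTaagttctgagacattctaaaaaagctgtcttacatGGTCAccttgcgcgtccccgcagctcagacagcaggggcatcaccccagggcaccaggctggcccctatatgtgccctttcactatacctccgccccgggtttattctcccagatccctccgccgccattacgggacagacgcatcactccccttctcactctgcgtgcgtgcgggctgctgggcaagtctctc
In the windows shown, the estrogen half-site lies at base 16 after the start in Esr1 and at base −88 in Greb1. The second Esr1 window holds 0 estrogen half-sites, and the second Greb1 window holds 2, at bases −194 and −85. The Tsc22d3 window holds the reverse of the glucocorticoid half-site at base −185 and an estrogen half-site at base −144. The Fkbp5 window holds neither half-site.

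Other genes of these pathways were taken from 8 lists, with 117 of 133 distinct genes measured. With the array-set term 0 of them passed the adjusted threshold in either direction (lowest limma adjusted p 0.958), as for 0.0% of all named genes. Over all named genes the median difference was 0.02, with 2.19% at least 1.5-fold higher and 2.7% at least 1.5-fold lower in high cells. With group as the only term, 2.14% of named genes passed as higher and 1.57% as lower.

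Of 25 measured glucocorticoid receptor targets, 18 had positive and 7 negative differences, with a median of 0.15. The largest was that of Sgk1, a kinase induced by both glucocorticoids and mineralocorticoids. It read 5.0, 5.18 and 5.36 in the high arrays, against 6.66, 6.45 and 6.33 in the low arrays. That is a difference of −1.31 (−1.92 to −0.69), with −1.67 and −1.04 within the array sets, and a limma adjusted p of 0.0188 with group alone. Pdk4, a kinase that restrains glucose oxidation, differed by 0.63 (0.02 to 1.24), and Angptl4, an inhibitor of lipoprotein lipase, by 0.48 (−0.04 to 1.0, adjusted p 0.0383 with group alone). Pck1, an enzyme of gluconeogenesis, differed by −0.56 (−1.18 to 0.06) at levels below the background. With Fkbp5 set beside this list, Sgk1 and Fkbp5 had the 2 most negative differences, while 18 of the 25 were positive. By group alone 1 target passed as higher and 1 as lower.

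**Figure D3:**
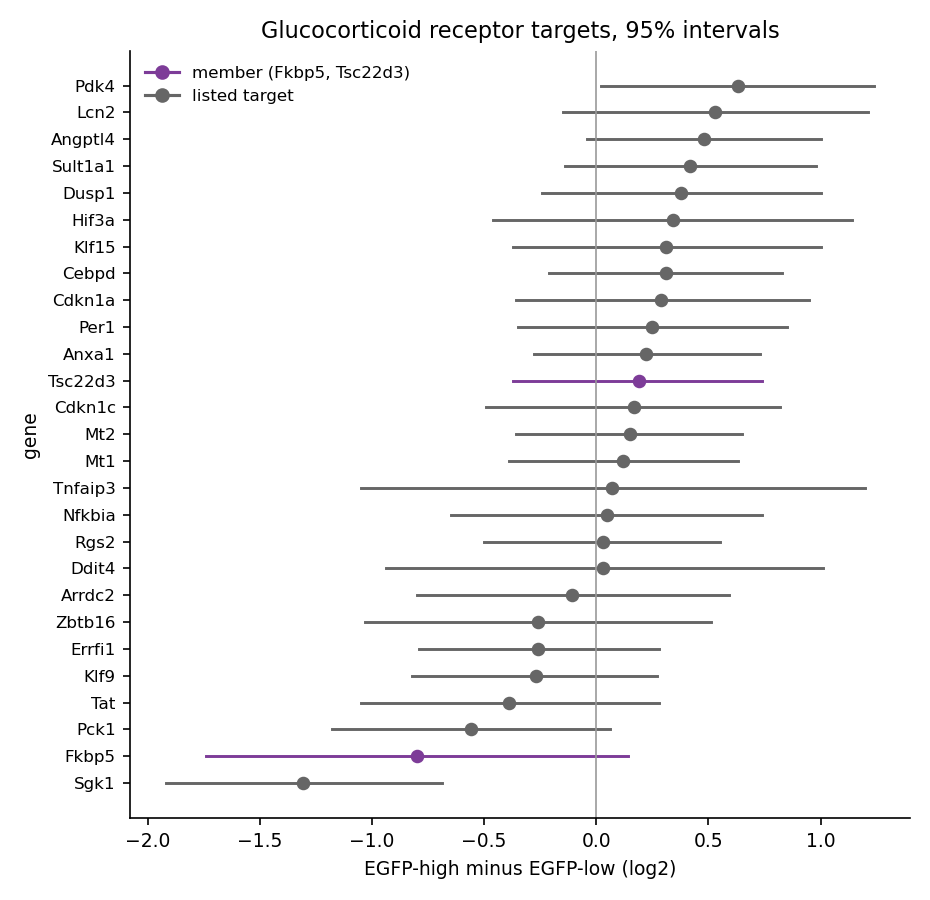
Difference of EGFP-high minus EGFP-low on the log2 scale (horizontal axis) for the 25 measured glucocorticoid receptor targets and the members Fkbp5 and Tsc22d3 (vertical axis, sorted), with 95% intervals from limma with the array-set term. Sgk1 (−1.31) and Fkbp5 (−0.80) lie lowest and Pdk4 (0.63) highest.

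Mineralocorticoid receptor targets had a median of 0.15 over 10 measured genes, 7 of them positive. Sgk1 is also on this list. Atp1b1, the beta subunit of the sodium pump, read 9.87, 9.93 and 9.99 in the high arrays and 9.57, 9.44 and 9.52 in the low arrays, a difference of 0.41 (−0.10 to 0.93) with a limma adjusted p of 0.0480 by group alone. The sodium channel subunits Scnn1b (−0.36, −0.95 to 0.24) and Scnn1g (−0.29, −0.90 to 0.33) had negative differences. A further subunit of that channel on the list, Scnn1a, had a positive one (0.33, −0.59 to 1.24). Scnn1b lay below the background in both populations.

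Estrogen receptor targets had a median of 0.03 over 19 measured genes, 11 positive and 8 negative. The chemokine Cxcl12 read 4.40, 4.44 and 4.47 in the high arrays, against 5.18, 4.94 and 5.32 in the low arrays. It differed by −0.71 (−1.29 to −0.14), with −0.78 and −0.66 within the array sets and a limma adjusted p of 0.0358 by group alone, the 1 gene of the list to pass that fit. Sprr2f, a cornified envelope gene induced by estrogen in the mouse uterus, differed by −0.72 (−1.37 to −0.07) at levels below the background. The mucin Muc1 differed by 0.39 (−0.32 to 1.10) and the survival factor Bcl2 by 0.45 (−0.39 to 1.28).

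Progesterone receptor targets had the lowest median of the 8 lists, −0.21 over 16 measured genes, with 5 positive and 11 negative and 3 at least 1.5-fold lower. Of the 16, 6 had a mean under the background. Adamts1, a protease induced by the progesterone receptor in follicles at ovulation, read 6.58, 6.93 and 7.29 in the high arrays, against 8.15, 7.72 and 7.53 in the low arrays. It differed by −0.87 (−1.72 to −0.01), with −1.57 in the first within-set contrast and −0.34 in the second. Rgcc, a cell cycle regulator, differed by −1.28 (−2.58 to 0.01), with −2.47 and −0.39. On high replicate 1, which the first contrast uses, Rgcc read 3.56, below the background of that array. The transcription factor Stat5a differed by −0.48 (−1.27 to 0.30), with −0.97 and −0.12. The nuclear receptor Pparg read 1.84, 2.51 and 3.19 in the high arrays and 4.17, 3.0 and 3.32 in the low arrays. It was above the background on low replicate 1 alone, the groups overlap, and its within-set contrasts were −2.34 and 0.04. By group alone 0 genes of this list passed in limma.

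**Figure D4:**
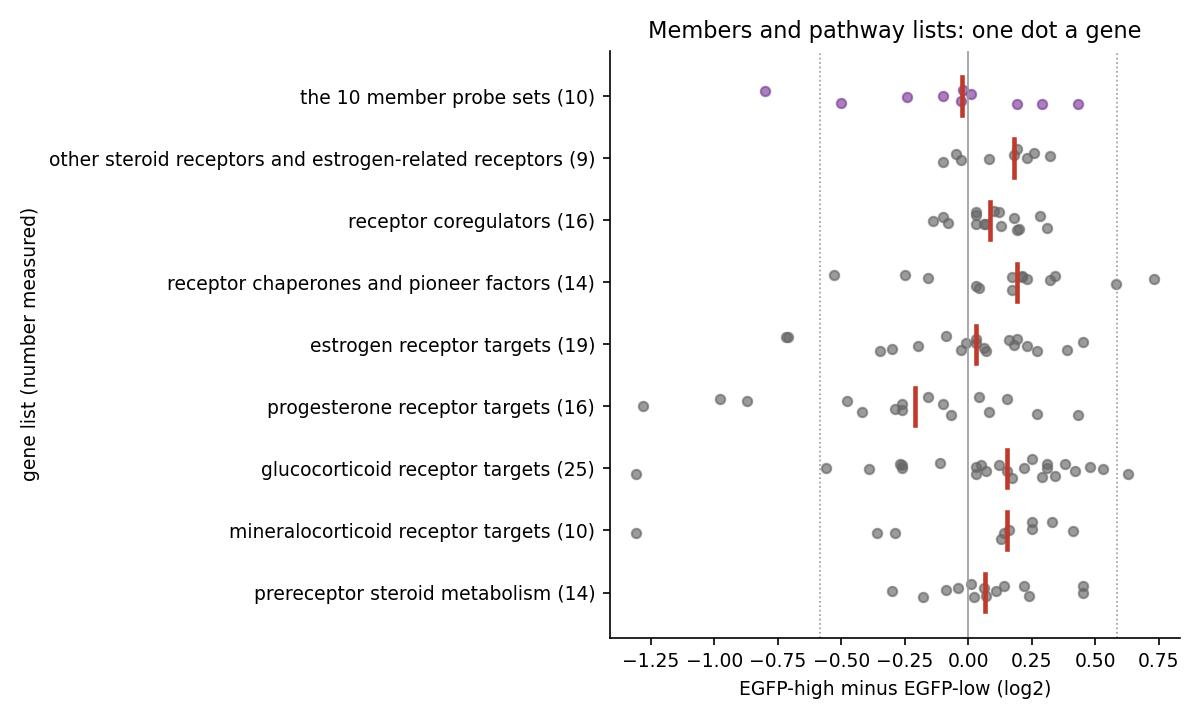
Difference of EGFP-high minus EGFP-low on the log2 scale (horizontal axis) for each measured gene of the 8 pathway lists and for the 10 member probe sets (vertical axis); red bars are medians and dotted lines mark 1.5-fold. List medians run from −0.21 for progesterone receptor targets to 0.19 for chaperones and pioneer factors.

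Further receptors, namely the estrogen-related and the membrane progesterone receptors, had a median of 0.18 over 9 measured genes, 6 positive and 3 negative. Pgrmc1, a heme-binding membrane protein associated with progesterone responses, read 7.05, 7.02 and 7.0 in the high arrays, against 6.68, 6.74 and 6.70 in the low arrays, a difference of 0.32 (−0.18 to 0.82). Its relative Pgrmc2 differed by 0.26 (−0.29 to 0.82) and the membrane progesterone receptor Paqr7 by 0.18 (−0.44 to 0.80). Esrrb, an orphan receptor, differed by 0.23 (−0.27 to 0.72) at levels below the background.

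Chaperones and pioneer factors had a median of 0.19 over 14 measured genes, 11 of them positive. Cdc37, an Hsp90 co-chaperone best known for kinases, read 7.19, 7.36 and 7.53 in the high arrays, against 6.79, 6.64 and 6.44 in the low arrays. It differed by 0.73 (0.12 to 1.35; limma adjusted p 0.0452 by group alone). The Hsp40 gene Dnajb1 differed by 0.58 (−0.26 to 1.41) and Hsp90aa1, the inducible Hsp90, by 0.32 (−0.21 to 0.85). The pioneer factor Foxa1 differed by −0.53 (−1.35 to 0.30), with means of 3.20 in high and 3.73 in low cells, and was above the background on 1 low array alone.

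Receptor coregulators, the cofactors that receptors recruit to DNA, had a median of 0.09 over 16 measured genes, 13 positive and 3 negative, with 0 past 1.5-fold in either direction and 0 past limma by group alone. Those with the smallest p were Safb (0.31, −0.38 to 1.0), Pelp1 (0.28, −0.45 to 1.01), the p160 coactivator Ncoa2 (0.19, −0.32 to 0.69) and the acetyltransferase Ep300 (0.18, −0.32 to 0.68).

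Enzymes that make or remove active hormone inside the cell had a median of 0.07 over 14 measured genes, 10 positive and 4 negative. Hsd17b2, which oxidises estradiol to the weaker estrone, read 9.96 on each of the 3 high arrays, against 9.52, 9.62 and 9.42 on the low arrays. It differed by 0.45 (−0.07 to 0.97), with 0.45 in both within-set contrasts and a limma adjusted p of 0.0445 by group alone. Hsd17b11 differed by 0.45 (−0.14 to 1.04) and Hsd17b12 by 0.24 (−0.32 to 0.80). The estrogen sulfotransferase Sult1e1 lay below the background, with means of 2.10 in high and 2.40 in low cells (difference −0.30, −0.80 to 0.21).

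Summed marker signal of theca and luteal cells, leukocytes and stroma was lower in every high array than in every low array. In bulk samples, fewer cells of a type and less RNA per cell cannot be told apart. Theca and luteal markers had 6 of 9 measured genes negative and 4 at least 1.5-fold lower. The other 3, Star (0.33), Cyp17a1 (0.04) and Nr5a1 (0.01), were positive. The linear signals of all 9 summed to 950 to 1130 in the high arrays, against 1430 to 1900 in the low arrays. Such sums weigh the brightest genes most. Cyp11a1, which makes pregnenolone, read 3.68, 4.02 and 4.35 in the high arrays, against 9.09, 8.26 and 8.92 in the low arrays. Hsd3b1, the next enzyme, averaged 3.15 in high and 5.91 in low cells. It was not above the background on any high array, so only a bound holds, at least 4.24-fold lower in high cells (the low mean against the background level of the high arrays). For leukocyte markers 13 of 14 were negative, with sums of 171 to 182 in high and 255 to 619 in low arrays. Of the 14, 8 had a mean under the background. Lyz2 and Tyrobp were not above it on any high array, and were at least 7.59-fold and at least 2.05-fold lower in high cells by the same bound. For stroma and fibroblast markers 8 of 12 were negative and 4 positive, Thy1 the most at 0.53. The 12 had sums of 686 to 691 in high and 773 to 1060 in low arrays. Of the 12, 5 had a mean under the background. Cd34 differed by −1.27 (−1.82 to −0.73), and Col1a2, not above the background on any high array, was at least 4.17-fold lower in high cells.

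Granulosa markers, the cell type in which Esr2 is best known, had 4 positive and 7 negative of 11 measured, with 1 at least 1.5-fold higher and 5 at least 1.5-fold lower, and sums of 714 to 740 in high and 703 to 794 in low arrays. Nr0b1 differed by 0.94 (0.38 to 1.51) and Fst by −1.29 (−2.35 to −0.24), the second with −2.21 and −0.60 within the array sets. Surface epithelium markers had 16 of 17 positive and sums of 15000 to 15700 in high and 12400 to 13400 in low arrays, with Cdh1 at 0.54 (0.04 to 1.05). Endothelial markers had 3 of 8 positive and 5 negative, with 6 of the 8 under the background on average, and summed to 298 to 328 in high and 288 to 310 in low arrays. Emcn (−0.61) was not above the background on any array. Cdh5 differed by −0.69 (−1.62 to 0.24) and was not above it on 2 high arrays and 1 low array. The 3 positive were Pecam1 (0.27), Kdr (0.14) and Tek (0.04). Oviduct epithelium markers had 2 of 6 positive and 4 negative, and summed to 514 to 516 in high and 430 to 567 in low arrays. Cldn4 differed by −0.54 (−1.09 to 0.01), and Foxj1 (−0.43) was not above the background on any array. The 2 positive were Epcam (0.33) and Cldn3 (0.15). Oocyte markers had 3 of 8 positive and 5 negative, with 6 not above the background on any array, and summed to 75.4 to 79.4 in high and 87.5 to 90.2 in low arrays. Nlrp5 (−0.79) and Zp2 (−0.90) were among those 6. The 3 positive oocyte markers were Gdf9 (0.43), Figla (0.12) and Bmp15 (0.08). The part of these other cells in the differences of Fkbp5, Greb1 and Sgk1 was not tested. Nor was the part of surface epithelium content in the difference of Esr1.

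Over the 6 arrays, the named genes whose pattern was most like that of Fkbp5 were 4933432I09Rik, Slc11a1 and Mir1949, with Pearson's r of 0.99999, 0.99989 and 0.99981. 4933432I09Rik read 2.0 to 2.54 and Mir1949 1.75 to 3.07 over the 6 arrays, both below the background on every array. Slc11a1, a metal transporter of macrophages, read 3.68, 4.07 and 4.47 in the high arrays, against 5.23, 4.6 and 4.67 in the low arrays. On high replicate 1 it was below the background of that array, 3.87. Of 22179 genes compared, 1122 had r above 0.9 with Fkbp5. The 6 columns hold only 4 independent dimensions, and these values are given as a description of the arrays alone.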

How the data were processed

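The value table deposited by the authors is on the log2 scale, with 41345 probe sets on each of 6 Affymetrix Mouse Gene ST 2.0 arrays. Expression Console and RMA, without versions, are named in the submitters' processing notes. The build and annotation behind the authors' probe sets are not given in the sources used here. A second table deposited by the authors holds ratios and signed fold scores (high over low) of 1134 probe sets, with sums of squares and other statistics not used here. Array medians lay between 3.76 and 3.85. The number of arrays limits the precision. Columns of values with no sample numbered 0.

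The platform annotation gave 1 symbol to 23521 probe sets, several to 1820 and none to 16004. All probe sets entered the fit, and list genes were read on their brightest probe set. High minus low was tested with limma 3.58.1 in R 4.3.3 (lmFit, eBayes, two-sided, Benjamini-Hochberg over all probe sets, threshold 0.05), with the array-set term. The scripts were tested on simulated data. Intervals are unadjusted 95% limits. Named were all members, Lgr5, Cyp11a1, and the genes with the smallest p, up to 4 of each pathway list and 2 of each marker list, and the 3 genes most correlated with the member of largest difference. Members and lists were chosen with earlier results of these data known.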

Additional observations from a re-analysis of the deposited data

How the results depend on the processing

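With the array-set term, 0 probe sets and 0 members passed in limma under every alternative tried but 1: with 1 probe set a gene, 1 gene passed, and it is no member. With group as the only term 1715 probe sets passed (841 higher) and 1 member, Esr1. With both choices, added after seeing the data, 1479 genes and again 1 member passed. Leaving out single arrays with group alone, also added then, gave 4 probe sets without low 1, high 1 or high 3, 0 without high 2, 2908 without low 2 and 2501 without low 3, with 0 to 1 members. Left out with the array-set term they gave 0 of both. Greb1 was the member called without low replicate 3. Deviations of same-numbered arrays correlated at −1.0, −0.01 and −0.28. The relations among the columns fix the value for replicate 1 and leave high 2 no deviation from its group mean. These correlations therefore cannot show whether replicate numbers pair the arrays. With the replicate block 0 probe sets and 0 members passed. Scaling moved the median of all probe sets from −0.0054 to 0.0506 at most.

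Signs near 0 turned. Esr2 was 0.00 after quantile normalization and 0.02 after centring, and −0.19 to 0.18 with single arrays left out. Pgr was 0.05, 0.04 and, with the level trend removed, 0.04, and −0.32 to 0.39 with arrays left out. Nr3c1 was −0.07 after quantile normalization, −0.10 with the trend removed, and −0.18 to 0.25 with arrays left out. The other Nr3c2 probe set gave −0.24. Esr1 (0.33 to 0.57), Greb1 (−0.67 to −0.36), Fkbp5 (−1.62 to −0.18), Gper1 (−0.23 to −0.01) and Tsc22d3 (0.02 to 0.40) kept their sign in all alternatives run. With the array-set term, leaving out low 1, high 1 or high 3 gives back a within-set contrast. Leaving out high 2 leaves the difference as it was, so these settings are not separate checks of the sign. The cause of the changes in sign and size was not tested. Members above background on all arrays numbered 8, 3 at the 99th percentile and 8 against the array median.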
